A study of Mus musculus with 2 samples.

Results

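The miRNA genes named Mir297, Mir466, Mir467 and Mir669 that lie inside the mouse gene Sfmbt2, on its strand, form one of the largest miRNA clusters of the mouse. GENCODE M21 placed 59 such genes among the 1973 miRNA genes of the tables, chosen by name and position only: 5 named Mir297, 20 named Mir466, 14 named Mir467 and 20 named Mir669. Small RNA was sequenced from forebrain of B6NCrl mouse embryos at 14.5 days, in 2 libraries numbered as biological replicates 1 and 2, with no treatment, allele or second tissue named. The labels call each library the forebrain of 1 pup and give different collection days, yet they also give a mixed sex and the same donor for both, so part of the replicate spread given here may be technical. There is 1 group and no contrast between conditions. Values are read counts on the strand of the gene, also scaled to CPM, the counts per 1000000 counts over all miRNA genes of a library.

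Sfmbt2 encodes a Polycomb-group protein and is an imprinted gene, expressed from the paternal chromosome in the early mouse embryo and the placenta. Its miRNAs are processed from a long intron that was filled by tandem duplication in rodents, and they are best known from trophoblast and embryonic stem cells, where the cluster is needed for normal growth of the placenta. Each hairpin is cut by Drosha and Dicer, and the mature miRNA then pairs with target mRNAs mainly through its seed, bases 2 to 8. Among the products with a described role, miR-467 has been linked to thrombospondin-1 and angiogenesis, and miR-466l to the stability of Il10 mRNA in macrophages.

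On mm10, Sfmbt2 spans chr2:10370510-10595253 on the plus strand, and the members occupy 51.6 kb of it, at chr2:10466663-10518279. All 59 lie in the same intron, which is intron 10 of the coding transcript Sfmbt2-201 (chr2:10461473-10523944), and 0 of them touch an exon of Sfmbt2. Their hairpins are 73 to 127 nt long, with a median of 90 nt. A further 48 miRNA gene models of other names lie in Sfmbt2 on the same strand, and 12 more genes of these names that M21 places there were not analysed here, since their M21 IDs did not match an ID of the tables. The 59 may therefore be incomplete if some of the 12 stand under older IDs. The 79 IDs of the tables that did not match M21 summed to 3 counts in replicate 1 and 5 in replicate 2.

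The name families are built from short alternating repeats of purines and pyrimidines, which the mature sequences of same-name genes elsewhere in the genome show well. Of the 10 same-name genes outside Sfmbt2, 8 matched a mature sequence in RefSeq (GRCm38.p6) by symbol, and 0 of the 59 members did. The 5 printed below were chosen to show the repeat types, written 5′ to 3′ with the seed in capitals:
mmu-miR-467g: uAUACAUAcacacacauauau
mmu-miR-466i-3p: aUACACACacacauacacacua
mmu-miR-466j: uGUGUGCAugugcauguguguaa
mmu-miR-466q: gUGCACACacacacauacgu
mmu-miR-669n: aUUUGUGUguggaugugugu
They lie at chr5:34732872-34732892 (minus strand), chr13:17747552-17747573, chr10:60960802-60960824, chr3:28419988-28420007 and chr3:115979905-115979924 (plus strand). In miR-467g and miR-466q, 100% of neighbouring bases alternate between purine and pyrimidine, and in miR-669n 78.9% do.

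The 8 RefSeq mature miRNAs have 8 different seeds, which were each searched for in the members. Searched on the strand of the hairpin only, AUACAUA occurs in 50 of the 59 member hairpins (84.7%) and in 6.65% of all 1894 annotated hairpins matched. UACACAC occurs in 37 members (62.7%, against 7.81%) and GUGUGCA in 30 (50.8%, against 4.80%). GUGUGUG, the seed of miR-466k, occurs in 31 (52.5%, against 9.35%). UGCACAC occurs in 12 (20.3%, against 2.75%) and UUUGUGU in 9 (15.3%, against 2.80%). UAUACAC, from miR-467f, occurs in 10 (16.9%, against 5.28%), and UAAGUGU, from miR-467h, in 1 (1.69%, against 0.686%). These motifs can overlap in 1 repeat, and a match anywhere in a hairpin is not a seed of its product. The full mature sequences of the 8 occur in 0 of the 59 member hairpins.

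Over whole hairpins the same composition holds. The median share of neighbouring bases that alternate between purine and pyrimidine was 86.6% in the members (64.3% to 94.6%) and 43.5% in the 1787 hairpins outside Sfmbt2, of which 6.83% reached the members' median. Members had a median GC content of 37.2%, against 52.0% outside.

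Of the counts assigned to miRNA genes in the forebrain, the members held under 1%, and nearly all of that stood at a few hairpins. Multi-mapping reads are in no gene count, so these shares do not cover products that several hairpins can give. The members summed to 25519 counts in replicate 1 and 24947 in replicate 2, out of 7080317 and 7946585 miRNA counts. That is 0.360% (95% exact binomial interval 0.356% to 0.365%) and 0.314% (0.310% to 0.318%), or 0.337% ± 0.0329 (SD, n = 2). The intervals cover counting error only, and the libraries differ by more than that error. Of the 59 members, 10 (16.9%) were detected, which here means that both libraries gave at least 10 counts, against 20.2% of all 1973 genes, and these 10 held 99.8% ± 0.185 of the members' counts. Another 38 members (64.4%) had no count in either library, against 62.6% of all genes. Both shares of members lie near those over all genes. Counts on the opposite strand were 0 for every member in both libraries. In bulk tissue, fewer cells that make these miRNAs and less RNA per cell cannot be told apart.

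Mir467 hairpins dominated. Mir467d, Mir467c and Mir467e were the only detected members of the 14 named Mir467, yet they held 81.1% ± 0.630 of the members' counts (SD, n = 2). Mir467d, at chr2:10507630-10507714 (ENSMUSG00000077021.2), had 8926 counts in replicate 1 and 8140 in replicate 2, 1143 ± 167 CPM, which placed it 82nd among all miRNA genes by mean CPM and gave it 33.8% ± 1.66 of the members' counts. Mir467c, at chr2:10473931-10474027 (ENSMUSG00000077049.2), had 6627 and 6800 counts, 896 ± 56.8 CPM. Mir467e, at chr2:10505721-10505807 (ENSMUSG00000076948.2), had 5028 and 5402 counts, 695 ± 21.5 CPM. The order Mir467d, Mir467c, Mir467e was the same in both libraries, and no value of one overlapped those of the next. The other members named Mir467 were Mir467b, with 0 and 3 counts, and 10 copies of Mir467a with 0 counts in both libraries.

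The Mir669 hairpins came second, with 18.5% ± 0.622 of the members' counts, and 5 of 20 were detected. Mir669o, at chr2:10514300-10514395, had 2281 and 2217 counts, 301 ± 30.5 CPM. Mir669l, at chr2:10468971-10469068, had 1877 and 1670 counts, 238 ± 38.9 CPM. Mir669c, at chr2:10509296-10509404, had 538 and 453 counts, 66.5 ± 13.4 CPM. Each of these 3 stood above the next in both libraries, and all were far above the remaining Mir669 hairpins. Mir669e, at chr2:10467495-10467613, had 98 and 63 counts, 10.9 ± 4.18 CPM, and Mir669h, at chr2:10518155-10518279, had 35 and 31 counts, 4.42 ± 0.737 CPM. Mir669f, at chr2:10467229-10467349, reached 10 counts in replicate 2 only, with 7 counts in replicate 1 and 73 in replicate 2.

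Mir466 and Mir297 hairpins had low counts. Of 20 Mir466 hairpins, only Mir466n at chr2:10513741-10513834 was detected, with 61 and 60 counts (8.08 ± 0.753 CPM). Of 5 Mir297 hairpins, only Mir297a-2 at chr2:10472254-10472343 was detected, with 29 and 27 counts (3.75 ± 0.494 CPM). The summed level was 8.90 ± 1.20 CPM for Mir466 and 4.08 ± 0.615 CPM for Mir297, against 2734 ± 245 CPM for Mir467 and 625 ± 81.8 CPM for Mir669. The 48 members under 10 counts in both libraries had at most 3 counts each, and they summed to 12 and 11 counts. Mir466b-3 and Mir297b had 3 counts in replicate 1, as Mir467b did in replicate 2.

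**Figure D1:**
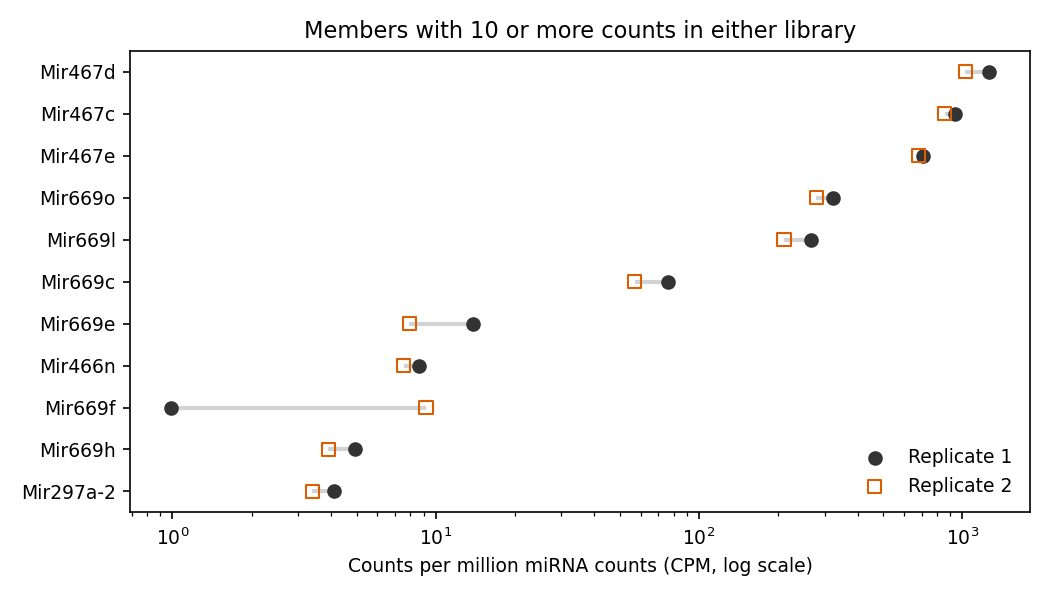
Level of the 11 members with 10 or more counts in either library, in CPM on a log axis, with a filled circle for replicate 1, an open square for replicate 2 and a grey bar joining them. Levels run from Mir467d at 1261 and 1024 CPM down to Mir297a-2 at 4.10 and 3.40 CPM, and Mir669f is the member whose libraries lie farthest apart.

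Each count belongs to a whole hairpin and does not say which arm gave the reads. Dividing the CPM by hairpin length left 9 of the 11 members in the same place in the order and exchanged Mir669h and Mir297a-2.

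The members with 10 or more counts lay in 2 flanks of the cluster, each of which also held members with few or no counts. The 5 members with 10 or more counts at the 5′ end of the cluster (Mir669f, Mir669e, Mir669l, Mir297a-2 and Mir467c) lie among the first 13 members, and the 6 at the 3′ end (Mir467e, Mir467d, Mir669c, Mir466n, Mir669o and Mir669h) among the last 20. Between them, from Mir669a-3 to Mir466b-3 at chr2:10474433-10503645, stood 26 members over 29.2 kb that summed to 4 counts in replicate 1 and 5 in replicate 2, with 23 of them at 0 in both. The flanks held 8640 and 8634 counts over 7.37 kb on the 5′ side, and 16875 and 16308 counts over 12.6 kb on the 3′ side. This stretch was found by looking for the longest run of members under 10 counts, so it is a description and carries no test.

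**Figure D2:**
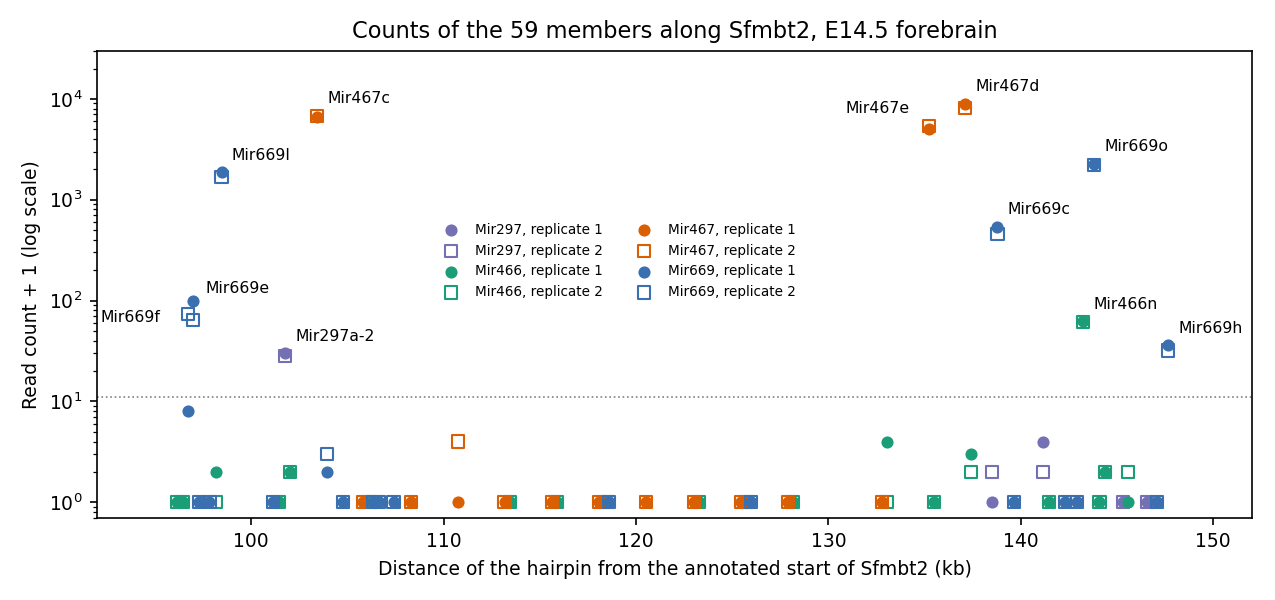
Read count + 1 on a log axis for each of the 59 members against its distance from the annotated start of Sfmbt2 in kb, with filled circles for replicate 1, open squares for replicate 2, a colour for each name family and a dotted line at 10 counts. Members above the line sit at both ends of the cluster, and the 26 members between 103.9 and 133.1 kb have at most 3 counts.

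The central stretch is also where hairpins are near copies of each other. The authors' tables list multi-mapping reads as a total apart from the genes, and this total was 42.7% ± 0.822 of all reads (SD, n = 2). Sequence sharing was therefore measured for each hairpin as the share of its 20-nt windows that occur in no other annotated mouse miRNA hairpin, on either strand, and only once in the hairpin itself. The median was 29.9% in the members and 100% over all 1894 hairpins matched. No such window existed in 20 members (33.9%), against 13.7% of all hairpins. These 20 members had 0 counts in both libraries. Reads that match several places are in no gene count, so the counting itself left these hairpins little room for a count. Of the 20, 19 lie in the central stretch, the exception being Mir669a-2, and that stretch was chosen by its low counts. All 11 members with 10 or more counts had windows of their own, from 32.4% for Mir297a-2 to 95% for Mir669e.

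The 10 copies of Mir467a show the tandem structure. They follow each other at a median of 2462 bp (2413 to 4880 bp) and hold only 3 different hairpin sequences, and 0 of the 10 have a window of their own. Mir467b, in the same stretch, has 20.4% of windows of its own. Mir467c and Mir467e have 60.3% and 57.4% of windows of their own, and Mir467d 37.9%. Sharing between members, unlike the share of own windows, was compared on the strand of the hairpin only. Of the windows of Mir467d, 22.7% also occur in Mir467c and 22.7% in Mir467e, and 54.5% to 62.1% occur in each Mir467a copy, so the member with the highest count is also the counted Mir467 hairpin closest to the copies at 0. In Mir467c and Mir467e, 19.2% and 22.1% of windows occur in each Mir467a copy. Reads that fit several copies are in no gene count, so the 0 counts at Mir467a set no limit on the amount of its product.

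**Figure D3:**
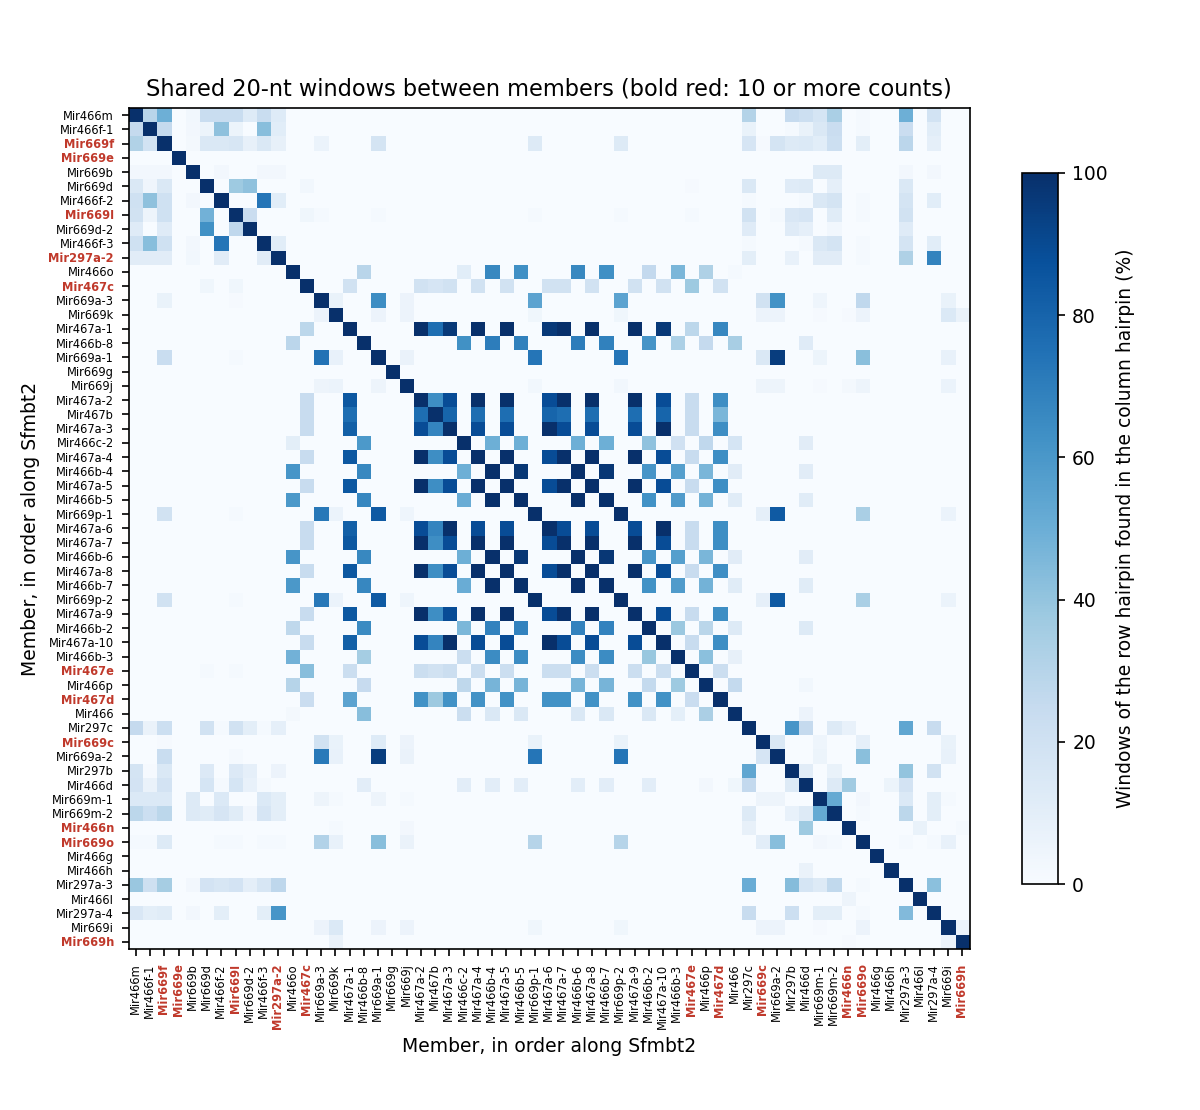
Share of the 20-nt windows of each member (row) that occur in each other member (column) on the strand of the hairpin only, from 0% (white) to 100% (dark blue), with members in order along Sfmbt2 and the 11 with 10 or more counts in bold red. The dark lattice in the middle is the repeated Mir467a and Mir466b hairpins, which have at most 3 counts each.

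Windows of their own were unevenly placed within some of the counted hairpins and evenly in others. In Mir467d, 19 of 33 windows centred on the 5′ side of the hairpin were its own and 6 of 33 on the 3′ side. Mir297a-2 showed the opposite, with 0 of 36 and 23 of 35, as did Mir466n with 5 of 38 and 34 of 37. In Mir467e the sides were alike, with 20 of 34 and 19 of 34, as in Mir669l with 19 of 40 and 21 of 39. Mir669e had 50 of 50 and 45 of 50, and Mir669c had 28 of 45 and 45 of 45.

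Sequence sharing did not follow the counts everywhere. Of 39 members with a window of their own, 28 stayed under 10 counts and 18 had 0 counts in both libraries. Over all 1973 genes, whatever their windows, 445 had 10 or more counts in either library and 62.6% had 0 counts in both. Low counts were thus common among all genes and not particular to these members. At least 50% of windows were their own in 13 members, 8 of which had 10 or more counts. The other 5 were Mir466g (100% of windows its own, 0 and 0 counts), Mir466h (93.5%, 1 and 1), Mir669b (87.2%, 0 and 0), Mir466l (85.3%, 0 and 1) and Mir669i (73.1%, 0 and 0). For reads that map to 1 place, a count of 0 allows a level of 3 counts, which is 0.424 CPM in replicate 1 and 0.378 in replicate 2. Mir669e, with 95% of windows its own, had a mean of 10.9 CPM, while Mir467d with 37.9% had 1143 CPM. Across the 59 members, which share libraries and tandem copies, Spearman's rho between the share of own windows and mean CPM was 0.59, given as a description. Multi-mapping reads are in no gene count, so members with no window of their own could gain few or no counts. In part, rho follows from this counting rule. Windows were compared with annotated miRNA hairpins and not with the whole genome, where simple repeats can match elsewhere.

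**Figure D4:**
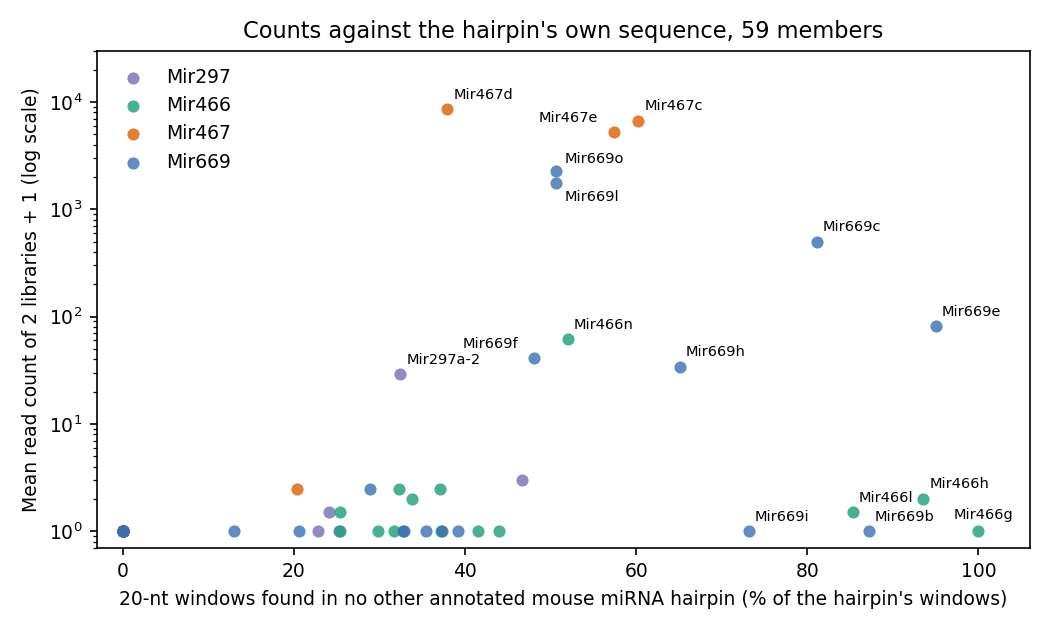
Mean read count of the 2 libraries + 1 on a log axis against the share of a hairpin's 20-nt windows that are its own, for the 59 members coloured by name family. The 20 members at 0% all have 0 counts, the 11 counted members lie between 32.4% and 95%, and Mir669i, Mir466l, Mir669b, Mir466h and Mir466g lie at the lower right with much sequence of their own and at most 1 count.

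Related genes gave almost no counts. The 48 other gene models inside Sfmbt2 summed to 11 and 16 counts, with at most 5 in any of them and 42 at 0 in both libraries. The 10 same-name genes outside Sfmbt2 had 0 counts in both libraries, except Mir466q on chromosome 3 with 1 count in replicate 1. All 10 have windows of their own, from 35.1% in Mir297-1 to 100% in Mir669n.

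Other clusters of the mouse shared less sequence than the members, but only Dlk1-Dio3 had a larger share of genes detected. In the imprinted Dlk1-Dio3 region, 45 of 51 miRNA genes (88.2%) were detected, against 16.9% of the Sfmbt2 members and 20.2% of all 1973 genes. The region held 5.78% ± 0.375 of the miRNA counts (SD, n = 2), and 1 hairpin had no window of its own. In the Mir290 to Mir295 cluster of early embryos, which is also prominent in embryonic stem cells and placenta, 1 of 7 genes (14.3%) was detected. This lies near the shares of the members and of all genes. These 7 genes had 54 and 55 counts in all, and 0 hairpins lacked a window of their own. The share of the Sfmbt2 members, 0.337% ± 0.0329, likewise holds only counts assigned to a gene, and 20 of their 59 hairpins had no window of their own. Their median share of own windows was 29.9%, against 100% in both others. These differences were not tested.

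Between the 2 libraries, 1 member differed by 2-fold or more, Mir669f. The summed level was 0.871 in replicate 2 relative to replicate 1 (95% exact interval 0.856 to 0.886). Each gene with 10 or more counts in either library was compared between libraries, its count against all other miRNA counts, with Fisher's exact test (two-sided), Benjamini-Hochberg adjusted over all 445 genes tested, which compares these libraries only and knows counting error only. At a 2-fold difference or more, 1 of the 11 members tested passed, against 3.82% of all genes tested. With no minimum fold 7 of 11 passed, against 47.9%. Of these, 6 were higher in replicate 1 (31.2% of all genes tested) and 1 in replicate 2 (16.6%).

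Mir669f was the 2-fold difference, at 0.989 CPM in replicate 1 and 9.19 CPM in replicate 2, or 9.29-fold higher in replicate 2 (exact interval 4.29 to 23.9, Fisher's exact test, adjusted p = 7.05e-13). Mir669f entered the test through replicate 2 only, the library where it was high. Its p and interval cover counting error only and are given as a description. Its neighbour Mir669e, which starts 145 bp after the end of Mir669f, went the other way, at 13.8 and 7.93 CPM, or 1.75-fold higher in replicate 1 (exact interval 1.26 to 2.44, adjusted p = 0.00138). Compared on the strand of the hairpin only, the adjacent hairpins share 0% of their windows, and together they had 105 and 136 counts. The closest member to Mir669f by windows shared on that strand was Mir466m, which holds 31.4% of them and had 0 counts.

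Smaller differences toward replicate 1 passed for Mir467d (1.23-fold, adjusted p = 5.18e-41 by Fisher's exact test), Mir669l (1.26-fold), Mir669c (1.33-fold), Mir669o (1.15-fold) and Mir467c (1.09-fold, adjusted p = 7.26e-07). Mir467e did not pass, at 1.04-fold (exact interval 1.01 to 1.09, adjusted p = 0.0534), nor did Mir466n (adjusted p = 0.584), Mir669h (0.505) or Mir297a-2 (0.618). The median log2 ratio of replicate 2 over replicate 1 was -0.27 over the 11 members and -0.09 over all 445 genes. Scaling by TMM or by median-of-ratios factors moved all log2 ratios up by 0.08 and 0.11, put Mir467e on the side of replicate 2 (as did totals without Mir99a, the most abundant gene), and left 6 and 5 of the 7 members past the threshold, Mir467c being lost in both and Mir669o in the second. The same scalings moved the split of all genes past the threshold from 139 higher in replicate 1 and 74 higher in replicate 2 to 101 and 93, and to 92 and 102. Each library has its own collection day, so day and library cannot be told apart.

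Of a list of neuron-associated genes, 5 of 5 were detected, summing to 13078 and 12489 CPM in replicates 1 and 2. The neural progenitor genes in the tables, 3 of 3 detected, summed to 4045 and 3348 CPM. Lists of other cell types were also detected in full, apart from the early embryo list, so detection alone did not single out forebrain. Their sums ran from 186 and 191 CPM for immune genes to 22103 and 22365 CPM for endothelial Mir126a. Genes of pluripotent cells and the early embryo summed to 383 and 316 CPM, with 4 of 9 detected and Mir290a and Mir367 at 0. The 4 detected were Mir302a to Mir302d, which held nearly all of this sum. They ran from Mir302c at 17.9 and 13.0 CPM to Mir302a at 184 and 145 CPM. The summed ratio of replicate 2 over replicate 1 was 0.828 for neural progenitor genes, 0.826 for choroid plexus or ciliated cells and 0.824 for the early embryo list. It was 0.955 for neuron, 1.01 for endothelium, 1.03 for immune genes and 1.12 for smooth muscle or stroma. Epithelium had 1.33 and erythroid genes 1.34, and the cluster had 0.871. Genes of 1 list also differed, from 0.862 for Mir205 to 2.23 for Mir429 in epithelium. In the progenitor list, ratios ran from 0.818 for Mir92b to 1.53 for Mir9-2. In the neuron list they ran from 0.861 for Mir153 to 1.60 for Mir128-1. The erythroid genes were at 1.31 for Mir451a and 4.97 for Mir144. The part of these cell types in the difference between the libraries was not tested.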

How the data were processed

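The authors deposited raw read counts per miRNA gene, in a table for each library. Per the README files of the samples, each table was made from an alignment to mm10 with GENCODE M4 genes. Aligner and counter: not given in the sources used here. Multi-mapping reads stand in a total of their own, among the 4 leading totals. All reads were taken as these 4 totals plus the gene counts. The strand of the gene was read from the values, since that column holds nearly all gene counts. The 4 leading totals name no gene and were left out. The libraries held 18598385 and 20638071 reads. CPM used the sum over all miRNA genes.

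Positions and hairpins came from GENCODE M21, on the same assembly (1894 of 1973 IDs matched). A genome sequence was not used here, so windows were compared with annotated hairpins only. The members and lists were chosen with earlier results of these data known. Every member with 10 or more counts in either library is named, and Mir466g, Mir466h, Mir669b, Mir466l, Mir669i and members with 3 counts or no own window, Mir297-1 and Mir669n were named after their values were seen. Fisher's exact test (scipy 1.17.1, two-sided, Benjamini-Hochberg, threshold 0.05) was tested on simulated data. The simulation held counting error only and changes of more than 2-fold. It therefore does not cover other spread between libraries or the smaller differences given above. TMM factors came from edgeR 4.0.16 and size factors from DESeq2 1.42.0, as alternative scalings only, since 1 group allows no model test.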

Additional observations from a re-analysis of the deposited data

How the results depend on the processing

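The cluster's share of the miRNA counts was 0.482% with a library total that leaves out Mir99a, the most abundant gene. Detected members numbered 16 with a minimum of 1 count in both libraries, 11 with a minimum of 3, and 10 when all gene models inside Sfmbt2 were taken, the last chosen after seeing the data. With only genes of 100 or more counts tested, 0 members differed 2-fold by Fisher's exact test, since Mir669f was then not tested, and 6 passed with no minimum fold, among them Mir467e, which does not pass over 445 genes. Over all genes, 17 of 445 differed 2-fold, against 2 of 286 under that minimum and 11 of 737 with no filter; Mir669f was called in each fit that tested it. The summed ratio of replicate 2 over replicate 1 was 0.920 under TMM scaling, 0.940 under median-of-ratios scaling and 0.914 when totals left out Mir99a. Leaving out either replicate gave a share of 0.314% to 0.360%, 10 to 11 detected members and 40 to 41 members with no count. Levels on the log2(CPM + 1) scale moved by less than the replicate SD with a pseudocount of 0.5 for 10 of 11 members, the exception being Mir297a-2. Windows of 18 or 22 nt, also chosen after seeing the data, again left 20 members with none of their own. With 2 libraries the SD is a coarse estimate, and members under 10 counts cannot be ranked at this depth. No paired analysis was possible because there is 1 group.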
